A study of Mus musculus with 3 samples.

Results

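The genes described here encode the constant parts of the αβ T cell receptor and the CD3 proteins that carry its signal: Trac, Trbc1, Trbc2, Cd3e, Cd3d, Cd3g and Cd247. They were taken by name and not by a cut on their values, with earlier results of these data known. All 7 were found in each count matrix, among 28692 genes listed for runs 1 and 2 and 32285 for run 3. Levels were read in 21879 of 23283 deposited cells, those with 500 to 5000 detected genes and no more than 7% mitochondrial counts.

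The cells were CD4- CD8- double negative (DN) and γδ thymocytes of C57BL/6 mice, aged 6 weeks by their label, with 4 thymi pooled for each of 3 single-cell libraries. CD4 and CD8 positive cells were depleted on beads before sorting. Run 1 held total DN cells with TCRγδ+ cells, run 2 held DN1 and DN2 cells, and run 3 held DN1 with DN2, DN3 and TCRγδ+ cells that had been sorted apart and mixed. The sorts also removed cells bearing B220, CD11b, CD11c, NK1.1 or surface TCRβ, and for run 2 TCRγδ. Because each sort was made 1 time, the sort and its library cannot be told apart. Levels were therefore compared between cells of the same run, apart from the B cell background, which was read in run 3 alone.

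An αβ T cell receptor reaches the cell surface only with its CD3 partners: a CD3ε-CD3γ pair, a CD3ε-CD3δ pair and a CD247 (CD3ζ) homodimer. Their cytoplasmic motifs recruit kinases. In the thymus the β chain is rearranged first and is tested with the surrogate chain pTα, and the α locus is rearranged later, largely once cells carry CD4 and CD8. The δ constant gene Trdc lies inside the α locus and is cut out when the α chain is joined, and constant genes can be transcribed before rearrangement, so a constant-gene count does not show a functional chain.

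In GRCm38 the members lie in 4 places. Cd3g (chr9:44969572-44980431, minus strand), Cd3d (chr9:44981786-44987339, plus) and Cd3e (chr9:44998740-45009627, minus) are neighbours, with 1354 bases between Cd3g and Cd3d and 11400 between Cd3d and Cd3e. Trbc1 (chr6:41538218-41539881) and Trbc2 (chr6:41546730-41548352) stand 6848 bases apart on the plus strand. Trac (chr14:54220521-54224206, plus) lies 71652 bases beyond Trdc, and Cd247 is on chr1:165788681-165877277, plus. The annotation places other genes across Cd3e and Cd247 on the same strand, Gm48720 and Gm16565, so reads in the shared stretches could belong to either.

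The 2 β constant genes are near copies, which bears on how their counts separate. Their annotated coding sequences of 518 bases are 95.6% identical (495 of 518 aligned bases), and 19 of the differences fall within the last 120 coding bases. These are printed 5′ to 3′, with the bases that differ between the genes in capitals.
Trbc1: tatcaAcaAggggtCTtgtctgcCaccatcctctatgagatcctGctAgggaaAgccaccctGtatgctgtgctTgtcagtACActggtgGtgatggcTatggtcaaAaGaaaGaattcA
Trbc2: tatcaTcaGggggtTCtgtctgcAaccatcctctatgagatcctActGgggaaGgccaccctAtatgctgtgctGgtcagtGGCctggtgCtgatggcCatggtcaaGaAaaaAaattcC
After the coding part the identity was 48.6% (107 of 220 aligned positions), where 3′ libraries usually read. The longest stretch without a difference ran to 259 bases, in which a read cannot be given to either gene, and how such reads were handled is not given in the sources used here.

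The 3 clustered CD3 genes differed in the gate at which they first reached 50% of their highest level among gates A to D. Each had its own gate in runs 2 and 3, and in run 1 only Cd3d stood apart. Their upstream sequences are therefore shown: the 250 bases before each RefSeq start (GRCm38.p6), 5′ to 3′ on the strand of the gene. Every CANNTG, the E-box read by E proteins, is in capitals.
Cd3g: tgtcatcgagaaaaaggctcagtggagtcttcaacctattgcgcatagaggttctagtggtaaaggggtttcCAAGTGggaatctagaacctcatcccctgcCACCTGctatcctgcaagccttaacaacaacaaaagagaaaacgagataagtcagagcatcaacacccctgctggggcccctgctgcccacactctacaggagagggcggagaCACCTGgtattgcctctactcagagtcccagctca
Cd3d: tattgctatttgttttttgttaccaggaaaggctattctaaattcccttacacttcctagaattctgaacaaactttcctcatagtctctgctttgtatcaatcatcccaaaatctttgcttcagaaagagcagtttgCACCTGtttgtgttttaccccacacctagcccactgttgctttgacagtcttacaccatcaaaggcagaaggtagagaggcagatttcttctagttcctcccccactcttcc
Cd3e: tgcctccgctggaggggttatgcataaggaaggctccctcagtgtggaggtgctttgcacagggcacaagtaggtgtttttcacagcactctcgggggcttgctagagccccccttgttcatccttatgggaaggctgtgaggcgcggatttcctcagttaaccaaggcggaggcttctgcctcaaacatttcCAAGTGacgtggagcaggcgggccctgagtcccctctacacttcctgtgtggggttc
Cd3g (chr9:44980432-44980681) held 3 such sites, Cd3d (chr9:44981536-44981785) held 1 and Cd3e (chr9:45009612-45009861) held 1. The form CAGGTG, searched on both strands and a subset of CANNTG, occurred at 2 sites upstream of Cd3g, at 1 upstream of Cd3d and at none upstream of Cd3e. Of 32851 upstream regions of this length, 66.2% held a CANNTG and 17.2% a CAGGTG, so the matches describe the letters only.

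With no cell labels used here, cells were placed in 7 gates by the transcripts of other genes, none of them a member or Trdc. Gate A held Kit or Cd34 without Il2ra (ETP-like). Gates B and C held Il2ra, the CD25 gene, with Kit, Cd34 or Cpa3, without (B, DN2a-like) or with (C, DN2b-like) Rag1, Rag2 or Ptcra. Gate D held Il2ra, Ptcra and a Rag gene without the early genes (DN3-like). Gate E held Cd8b1 (DN4-like), gate F held Sox13 (γδ-like) and gate G held Il2rb (mature innate-like), the last 3 without Il2ra and the early genes. Gates F and G also lacked Rag1, Rag2, Ptcra and Cd8b1, whereas gate E cells could hold Rag1, Rag2 or Ptcra.

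Only gates of at least 50 cells were used, which left gate A in run 2 (56 cells), gate E in run 1 (1014 cells) and gate G in runs 2 and 3 (1346 and 999 cells). Gates B, C, D and F were present in all 3 runs, with 373, 1686 and 860 cells in B, 211, 796 and 697 in C, 564, 413 and 795 in D, and 71, 143 and 263 in F. Another 54.8%, 43.6% and 28.1% of the cells of runs 1, 2 and 3 met no gate. A further 3.88%, 5.82% and 22.7% were left out of the gates because they reached a limit of markers of other cell types. Gated cells carried some of these markers too, such as Epcam in 53.5% and Cd79b in 38.0% of gate D cells of run 3. The cells left out can therefore include thymocytes, and their identity was not tested. Genes that set no gate were used to check the names of gates B, D, F and G, and no check is given for gates A, C and E. Lyl1, an early regulator, was at 31.0, 42.2 and 25.8 CPM (UMIs per 1000000 of the gate's total) in gate B of runs 1, 2 and 3 and at no more than 0.679 in gate D. Blk, a γδ-associated kinase, reached 199, 458 and 312 CPM in gate F, and Nkg7 reached 1723 and 1118 CPM in gate G. The DN1 and DN2 sort of run 2 also held cells of gates D, F and G, so a gate is a transcript pattern and not a surface phenotype. Total UMIs over all deposited cells were 39947415, 52797915 and 98533329, and the median kept cell held 5989.5, 4844 and 8507 UMIs. Runs 1 and 2 shared 72 cell barcodes, runs 1 and 3 shared 3, and runs 2 and 3 shared 0.

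The UMIs of a member in cells that should lack it, such as B cells, give a background level. It was read in 299 B cells of run 3, picked by 2 or more Cd79a UMIs with Ms4a1, a rule chosen after the data were seen. There Trbc2 was at 464 CPM, Trbc1 at 299, Cd3g at 294, Cd3d at 171, Cd3e at 92.7, Cd247 at 27.6 and Trac at 24.99. A looser rule, 2 UMIs over Cd79a, Cd79b and Ms4a1, took 1106 cells of run 3 and gave 1367 CPM of Trbc1, 564 of Cd3d, 397 of Cd3e and 22.1 of Trac, and was set aside because thymocyte gates also carried Cd79b. The background of the members other than Trac thus depends on which cells are called B cells. Runs 1 and 2 held 3 and 9 cells by the stricter rule, too few for the same reading. All intervals below are 95% and cover counting error only, exact Poisson for levels and Clopper-Pearson for shares of cells.

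Among gates A to D, both β constant genes were already at 82.2% or more of their highest level in the first gate with a value in every run. In gate B, Trbc1 was at 2145 CPM (2080 to 2211) in run 1, 1957 (1933 to 1981) in run 2 and 1963 (1938 to 1989) in run 3. By gate D it was lower in all 3 runs, at 1492, 1372 and 1354 CPM, which is 69.6%, 70.1% and 69.0% of the gate B level. The size of this difference was nearly the same in the 3 runs, and the intervals of the gates did not overlap. Trbc2 kept no common direction from gate B to gate D: 2014 and 2449 CPM in run 1, 1924 and 1934 in run 2, and 2267 and 1847 in run 3. Trbc1 made up a smaller share of the β constant UMIs in gate D than in gate B, 37.9% against 51.6% in run 1, 41.5% against 50.4% in run 2 and 42.3% against 46.4% in run 3. In the 56 cells of gate A in run 2, Trbc1 was at 1738 CPM (1602 to 1883) and Trbc2 at 2007 (1861 to 2162). The B cells of run 3 had 299 and 464. Compared with gate B of run 2, gate A had more Trac (89.7 against 35.3 CPM) and less Cd3g (911 against 1596). Whether gate A held progenitors alone was not tested, so these levels describe the gate and not a progenitor stage.

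Cd247, the ζ chain that T cells share with NK cells, varied little over these gates. It measured 144, 167 and 145 CPM in gates B, C and D of run 1, 153, 156 and 178 in run 2, and 123, 119.6 and 155 in run 3. Its level in gate A of run 2 was 116 CPM (82.7 to 158), with an interval that includes that run's gate B. All of these lay above the 27.6 CPM of the B cells of run 3 by the stricter rule. The looser rule, set aside above, gave 120 CPM there.

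Cd3g was the most abundant of the CD3 genes in gate B, on a 3′ count that does not scale with transcript length, at 1778, 1596 and 1225 CPM. Its later course differed by run: 1832 and 1696 CPM in gates C and D of run 1, 2275 and 3047 in run 2, and 1926 and 2265 in run 3. In run 1 the intervals of gates B and D overlapped, and in runs 2 and 3 gate D was 1.91 and 1.85 times gate B. Gate A of run 2 held 911 CPM (813 to 1017), 29.9% of the gate D level. The DN4-like gate E of run 1 held 789 CPM (771 to 806), below gates B, C and D of that run.

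Cd3e, the subunit shared by both CD3 dimers, had a higher level at each later gate from B to D. The DN4-like gate E of run 1 held 393 CPM (381 to 405), below gates C and D of that run. Cd3e measured 353, 452 and 546 CPM in gates B, C and D of run 1, 459, 636 and 1065 in run 2, and 309.8, 482 and 783 in run 3. Gates B, C and D kept that order in all 3 runs without overlap of the intervals, and gate D was 1.55, 2.32 and 2.53 times gate B.

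Cd3d, the partner of CD3ε in the second dimer, showed the steepest course of the members. It was at 242 CPM (220 to 265) in gate B of run 1, 152 (146 to 159) in run 2 and 198 (190 to 206) in run 3. Gate C held 542, 349.7 and 542 CPM, and gate D held 928, 1143 and 1481. Gate D was thus 3.84, 7.50 and 7.48 times gate B. The DN4-like gate E of run 1 held 495 CPM (482 to 509), below gates C and D of that run. In gate B the Cd3d level was close to the 171 CPM in B cells of run 3. The share of cells with Cd3d was higher in gate B. With the same number of UMIs drawn from each cell, Cd3d was detected in 24.4% of gate B cells of run 3 (21.6 to 27.4). The B cells of that run had it in 14.5% (10.7 to 19.0), without overlap of the intervals. Whether the gate B level is background was not tested. In run 2 the gate B level was below the gate A level of 240 CPM (191 to 298).

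**Figure D1:**
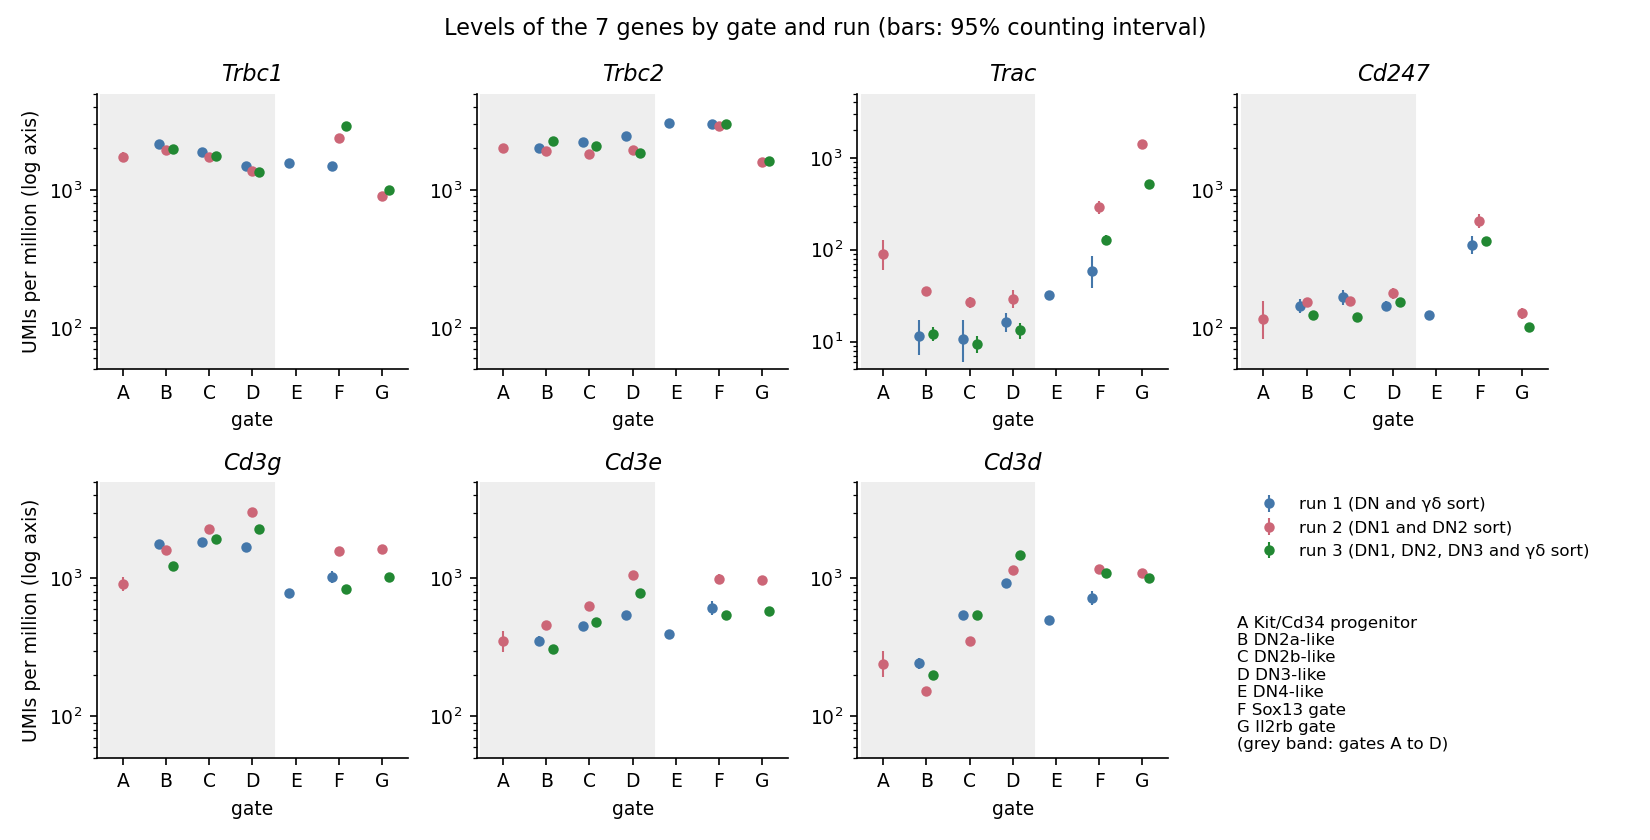
Level of each gene in CPM (log axis) in gates A to G, 1 point per run with its 95% counting interval, grey for gates A to D. Trbc1 lies lower in gate D than in gate B in all 3 runs, Cd3d lies 3.84 to 7.50 times higher, and Trac is highest in gate G of runs 2 and 3 (1411 and 519.8).

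Trac stayed near its B cell level through gates B to D. It was at 11.4, 10.6 and 16.5 CPM in run 1, 35.3, 26.8 and 29.2 in run 2 and 12.1, 9.34 and 13.2 in run 3, and the run 3 values were below the 24.99 CPM (18.4 to 33.1) of B cells. Run 2, where the highest Trac levels were found in gate G, had the highest values in these gates as well. Gate A of run 2 held 89.7 CPM (60.9 to 127), but its 31 Trac UMIs came from 10 of 56 cells, and 18 of them from 3 cells. The DN4-like gate of run 1 held 31.9 CPM (28.5 to 35.6), with a median of 0 UMIs per cell and 232 of 1014 cells with any.

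With each member set against its own highest level among gates A to D, Cd3d was the last in all 3 runs. The first gate at 50% or more was taken as the onset. Trbc1, Trbc2 and Cd247 met this in the first gate of each run, and Cd3g in gate B of each run. Gate B was the first gate of runs 1 and 3, so Cd3g stood apart from these genes in run 2 only. Cd3e met it in gate B of run 1 (64.7%) and in gate C of runs 2 and 3 (59.7% and 61.5%). Cd3d came last in every run, in gate C of run 1 (58.4%) and in gate D of runs 2 and 3, where gate C had 30.6% and 36.6%. Trac met it in the first gate of each run as well, at levels close to those of B cells in runs 1 and 3 and on few cells in run 2, so no onset is read for it. In gate B, 6, 4 and 5 of the 7 members were at 50% or more of their height in runs 1, 2 and 3. Among all genes that reached 20 CPM in some gate from A to D and set no gate, 98.8% (5815 of 5884), 94.5% (5787 of 6124) and 98.1% (6089 of 6208) were.

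Few genes were thus below 50% in gate B, and Cd3d was among them in all 3 runs, at 26.0%, 13.3% and 13.4%. Cd3e was among them in runs 2 and 3, at 43.1% and 39.6%, and Trac in run 2. With cells that carried markers of other cell types kept in the gates, run 3 had 3 members at 50% or more in gate B.

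**Figure D2:**
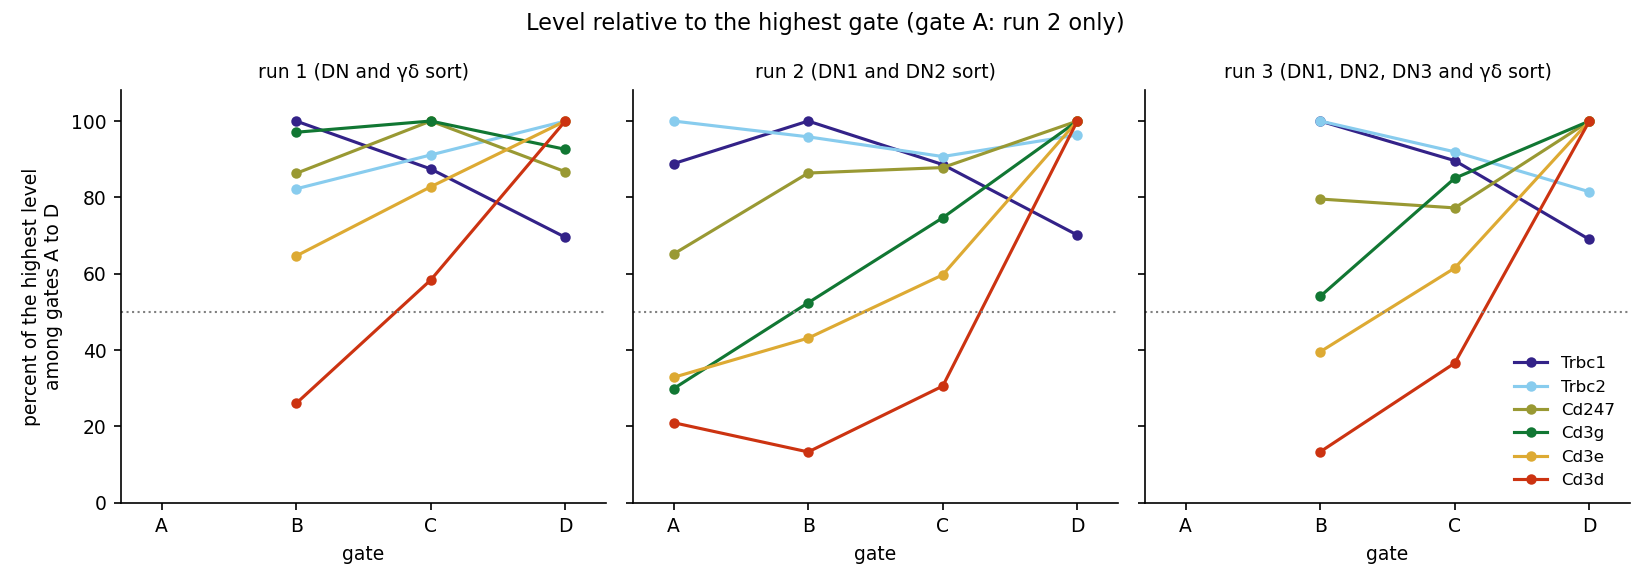
Level in percent of the highest among gates A to D for 6 genes, 1 panel per run, with gate A shown for run 2 and a dotted line at 50%. Cd3d is the lowest line at gate B in each run (26.0%, 13.3% and 13.4%), and Trbc1 is at 100% there, together with Trbc2 in run 3.

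The differences between gates were then tested with the run as the unit of replication. Counts were summed per gate and run and fitted in edgeR with the run as a block, with p-values adjusted over 11914 genes. Between gates B and C, 1 member rose where 0.168% of all genes did, and none fell where 0.101% did. Cd3d rose by 1.29 on the log2 scale (SE 0.20, edgeR adjusted p = 0.010). Cd3e differed by 0.50 (SE 0.12, adjusted p = 0.15 in edgeR) and Cd3g by 0.40 (SE 0.15, adjusted p = 0.53), below the threshold. Cd3d was not called without run 2 (1.31, edgeR adjusted p = 0.078) or without run 3 (1.20, adjusted p = 0.58).

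Between gates C and D, 2 members rose where 1.13% of all genes did, and none fell where 2.14% did. Cd3d rose again, by 1.33 (SE 0.20, edgeR adjusted p = 0.00077), and Cd3e rose by 0.60 (SE 0.12, adjusted p = 0.0097). Without run 3 neither call remained, with Cd3d at 1.26 (edgeR adjusted p = 0.072) and Cd3e at 0.54 (adjusted p = 0.32), and without run 2 Cd3e stood at 0.54 (adjusted p = 0.27). Trbc1 differed by -0.33 (SE 0.16, edgeR adjusted p = 0.38) in this fit. It passed with gates set on thinned counts (-0.62, adjusted p = 0.026) and with run 1 left out (-0.39, adjusted p = 0.044). Without the block by run no member passed at either step. The median member difference was 0.07 from B to C and 0.21 from C to D, against -0.00 and 0.01 over all genes.

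The other genes of the receptor pathway were read at the same steps. Of 22 listed genes that set no gate, 21 were tested, Cd4 being too low. From B to C 0 rose and 1 fell in edgeR, and from C to D 0 rose and 3 fell. At an unadjusted p under 0.05, 1 and 4 were higher in edgeR and 0 and 3 in DESeq2. Those that fell from C to D were Tyrobp, the DAP12 adaptor of NK receptors (-2.39, SE 0.30, edgeR adjusted p = 0.00016), Fcer1g, an adaptor that can stand in for CD247 (-1.04, SE 0.26, adjusted p = 0.033), and Tcrg-C1, a γ constant gene (-0.96, SE 0.14, adjusted p = 0.00052). From B to C the gene that fell was Tyrobp (-1.11, SE 0.19, adjusted p = 0.021).

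The Sox13 gate differed from the DN3-like gate in most members. Against 13.5% of all genes that rose and 10.8% that fell, 4 members rose, 1 fell and 2 did not pass. The median member difference was 0.49, and that over all genes -0.04.

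Cd247 rose by 1.54 (SE 0.13, edgeR adjusted p = 1.9e-07). Its level in gate F was 399 CPM (342 to 462) in run 1, 599 (534 to 670) in run 2 and 429 (401 to 458) in run 3. Each lay above every other gate of its run, at 2.76, 3.37 and 2.77 times gate D.

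Trac rose by 2.95 (SE 0.22, edgeR adjusted p = 7.2e-08), to 58.2, 289.6 and 128 CPM. The β constant genes rose as well. Trbc1 rose by 0.64 (SE 0.16, edgeR adjusted p = 0.0090) and Trbc2 by 0.49 (SE 0.11, adjusted p = 0.0039), with gate F at 1489, 2364 and 2893 CPM for Trbc1 and 2994, 2921 and 2983 for Trbc2. In run 1 Trbc1 did not differ between gates F and D beyond counting error. Both calls were lost without run 2 (edgeR adjusted p = 0.13 and 0.065) or run 3 (adjusted p = 0.32 and 0.14). Without the block by run, Trac and Cd247 passed in this comparison, and Trbc1, Trbc2 and Cd3g did not.

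Cd3g was the member that fell, by 1.08 (SE 0.15, edgeR adjusted p = 6.0e-05), to 1025, 1573 and 833 CPM in gate F. Cd3e and Cd3d differed by -0.20 (adjusted p = 0.28 in edgeR) and -0.27 (adjusted p = 0.35). With gates set on counts thinned to 2000 UMIs both were lower in gate F, Cd3e by -0.53 (edgeR adjusted p = 0.0020) and Cd3d by -0.85 (adjusted p = 0.00035), and Cd3e passed too with run 1 left out (-0.32, adjusted p = 0.046).

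The Il2rb gate, present in 2 runs, differed from the DN3-like gate in Trac by more than any other member did. Against 25.5% of all genes that rose and 27.6% that fell relative to the DN3-like gate, 1 member rose and 1 fell. Trac rose by 5.45 (SE 0.23, edgeR adjusted p = 3.0e-11), to 1411 CPM (1375 to 1447) in run 2 and 519.8 (503 to 537) in run 3. It had 5 or more UMIs in 43.5% and 33.3% of these cells, against at most 1.88% of cells in gates B to D of any run.

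Cd3g fell by 0.70 (SE 0.17, edgeR adjusted p = 0.0027), to 1625 and 1021 CPM, and without run 3 its difference was -0.39 (adjusted p = 0.24), without the block -0.61 (adjusted p = 0.25). Trbc1 and Cd247 differed by -0.43 and -0.32 (edgeR adjusted p = 0.062 and 0.065), at 897 and 992 CPM and at 127 and 101 CPM. With run 1 left out both passed, at -0.30 (edgeR adjusted p = 0.026) and -0.31 (adjusted p = 0.020). The other 3 members differed by 0.02 (Cd3e), 0.02 (Cd3d) and -0.14 (Trbc2), none past the threshold. When library size alone replaced the TMM scaling, the median of all genes moved from -0.06 to -0.24, the split of higher to lower calls from 3033 and 3291 to 2449 and 4279, and Trbc1, Trbc2 and Cd247 joined the members that were lower.

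**Figure D3:**
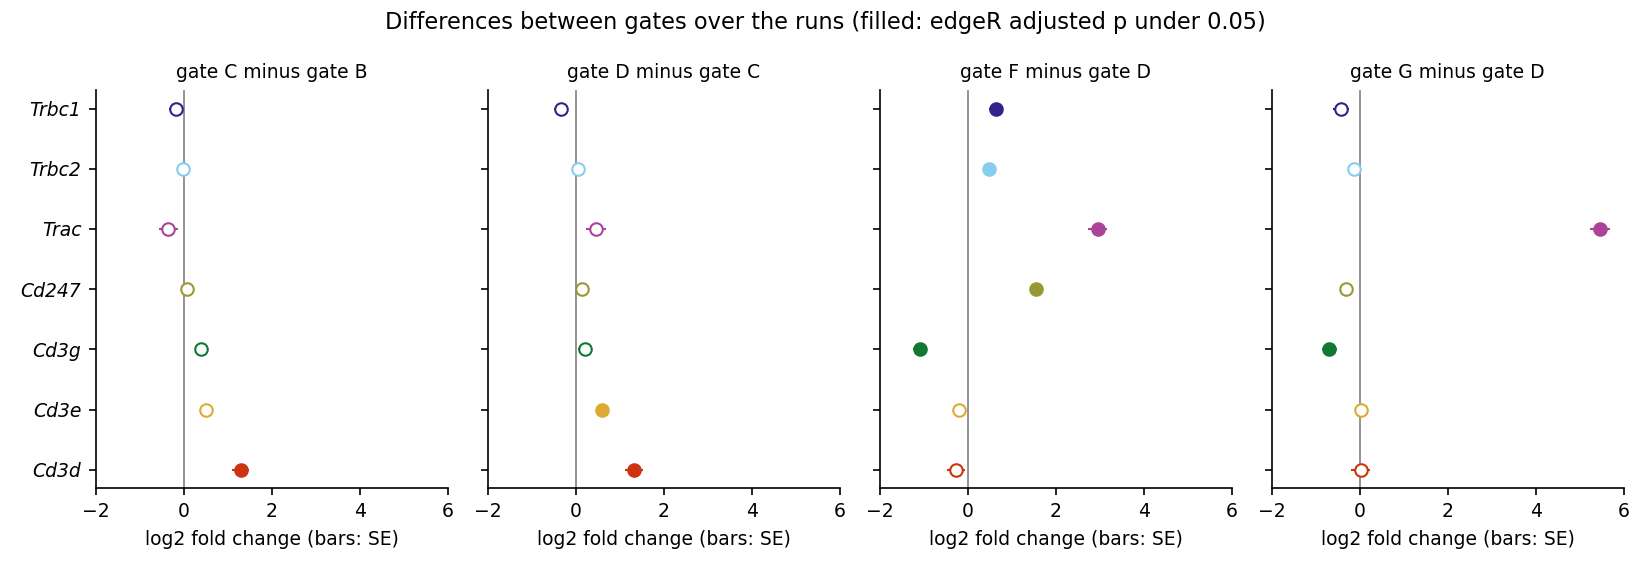
Fitted log2 fold change of each gene with its SE for gates C minus B, D minus C, F minus D and G minus D, filled where the edgeR adjusted p was under 0.05. Cd3d lies right of 0 at both early steps (1.29 and 1.33), Cd247 in gate F (1.54) and Trac in gates F and G (2.95 and 5.45).

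Beside these members the receptor partners and adaptors moved as follows. In gate F against gate D 11 of the 21 pathway genes rose and 4 fell, and in gate G 11 rose and 8 fell. Trdc, the δ constant gene, rose by 2.25 in gate F (SE 0.19, edgeR adjusted p = 2.1e-07) and fell by 0.93 in gate G (SE 0.21, adjusted p = 0.0014). Zap70, the kinase that binds phosphorylated CD3 and ζ motifs, rose by 2.44 and 2.91 (edgeR adjusted p = 1.3e-06 and 4.0e-08), and its relative Syk fell by 1.90 and 2.32 (adjusted p = 0.00045 and 1.1e-06). Lck, which phosphorylates those motifs, fell by 1.02 and 0.65 (edgeR adjusted p = 1.4e-05 and 0.00087). Fcer1g and Tyrobp rose in gate G, by 5.47 and 4.36 (edgeR adjusted p = 3.0e-11 and 1.5e-09), and in gate F differed by 0.24 and 0.30 (adjusted p = 0.74 and 0.76).

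Gate G can hold NK or innate lymphoid cells, which carry CD247 without a receptor, and 5 of their genes were read in it. Klrb1c, the NK1.1 gene, was at 385 and 216 CPM in runs 2 and 3, Ncr1 at 3.51 and 14.7, Eomes at 3.04 and 14.4, Areg at 0.234 and 1.13, and Il1rl1 at 0 UMIs in run 2 and 1 in run 3. Thinned to 2000 UMIs, 1165 of 1346 cells of run 2 and 612 of 997 of run 3 had a Trac UMI. Among the remaining cells of run 3, Ncr1 was at 27.6 CPM and Eomes at 30.5, against 4.27 and 2.01 in those with Trac. In run 2 these genes were at 5.97 and 2.98 without and 3.05 and 3.05 with Trac. Klrb1c went the other way, at 209 CPM without and 418 with Trac in run 2 and 159 and 259 in run 3. Areg had 0 and 1 UMIs in run 2 and 2 and 6 in run 3. In the cells of runs 2 and 3 without Trac among their 2000 drawn UMIs, Cd3e was at 889 and 532 CPM and Cd247 at 155 and 111. Over all their UMIs, 1250 of 1346 and 850 of 999 gate G cells had Trac. Some cells counted here as without Trac thus carried it, and the group is not one of receptor-negative cells. The sort had removed cells that bore the NK1.1 protein. The part of NK or innate lymphoid cells in the gate G levels was not tested.

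How the CD3 genes were combined in single cells was read after drawing 2000 UMIs from each cell. Cd3e, Cd3d and Cd3g were all detected in 14.7% of gate B cells of run 1 (11.3 to 18.8), 13.7% of run 2 (12.1 to 15.4) and 12.6% of run 3 (10.4 to 15.0). In gate C the shares were 34.1%, 30.5% and 39.2%, and in gate D 56.0%, 69.0% and 67.8%. Each step was larger than the counting error in each run.

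Taken singly in gate B of runs 1, 2 and 3, Cd3g was detected in 81.0%, 75.4% and 71.0% of cells. Cd3e was detected in 48.3%, 53.9% and 44.8%, and Cd3d in 28.7%, 20.6% and 24.4%. Whether the combinations below go beyond such single-gene shares was not tested. Where a gate B cell had exactly 1 of the 3 genes, it was Cd3g in 85.7% (96 of 112), 78.9% (366 of 464) and 78.9% (210 of 266) of cells. Where it had 2, Cd3d was the missing gene in 69.2%, 85.4% and 74.0% of 156, 685 and 308 cells. In gate D the gene missing from such cells was Cd3d in 31.0%, 59.1% and 30.5%. Gate B cells with a Trbc1 or Trbc2 UMI and none of the 3 CD3 genes numbered 49 of 373, 305 of 1686 and 178 of 860, and the reverse pattern was seen in 0, 5 and 1 cells. In gate D the first pattern was down to 2 of 564, 0 of 413 and 1 of 793 cells, and the reverse pattern was more frequent there, in 7, 7 and 39 cells.

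Co-detection with Trdc was read in the same thinned cells. The shares over all cells of a run include cells carrying markers of other cell types. A Trdc UMI was found in 2806 of 5516 cells of run 1, 3902 of 8852 of run 2 and 2790 of 7463 of run 3, and in 9.09% of the B cells of run 3. The 48 cells of run 3 under 2000 UMIs were left out. A member was more often detected in Trdc+ than in Trdc- cells for 7 of 7 members in run 1, 4 in run 2 and 6 in run 3. Among all genes found in 5% or more of cells this held for 51.4%, 71.1% and 64.3%.

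Trac went mostly with cells that lacked Trdc in runs 2 and 3, and not in run 1. It was detected in 4.17% of Trdc+ cells (3.46 to 4.98) and 2.80% of Trdc- cells (2.22 to 3.50) in run 1. In run 2 the shares were 8.18% (7.33 to 9.08) and 46.1% (44.7 to 47.5), and in run 3 they were 6.85% (5.94 to 7.85) and 20.8% (19.6 to 22.0). The B cells of run 3 had a Trac UMI in 2.36% of cells. Without thinning, the shares were 13.7% and 7.78% in run 1, 15.4% and 70.4% in run 2 and in run 3 they differed by -32.7 points. Run 1, where the thinned intervals overlapped, held 30 cells of gate G.

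The share of cells with Trdc was also read at each minimum of UMIs. At 1 UMI, 60.6%, 12.3% and 16.4% of Trac+ cells had Trdc in runs 1, 2 and 3, against 50.5%, 57.3% and 41.3% of cells without Trac. With 3 or more UMIs asked of each gene, both were found in 4 of 16 Trac cells of run 1, 5 of 1342 of run 2 and 2 of 197 of run 3, and Trdc was in 13.5%, 19.8% and 12.3% of the other cells. Runs 2 and 3 thus had Trdc in a lower share of their Trac cells than of the rest, while run 1 did not, and its share rests on 16 cells. The Trdc level in cells with 0, 1, 2 to 4 and 5 or more Trac UMIs was 646, 511, 114 and 27.4 CPM in run 2, and 420.2, 338, 94.5 and 76.6 in run 3. In run 1, where no cell had 5 or more, it was 427, 572 and 666 CPM, the last over 23 cells.

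Within gate B Trac was rare on both sides, in 2 of 226 Trdc+ and 3 of 147 Trdc- cells of run 1 and in 43 of 996 and 33 of 690 of run 2. Within gate F it was in 11 of 50 Trdc+ cells and 0 of 21 Trdc- cells of run 1 (upper limit 16.1%), in 22 of 110 and 21 of 33 in run 2, and in 26 of 206 and 21 of 53 in run 3. Summed over the gate F cells with Trac, Trdc was at 2637, 1344 and 916 CPM in runs 1, 2 and 3. In gate F cells without Trac among their drawn UMIs, Trdc was at 924, 2467 and 1411 CPM. Over all their UMIs, 22, 55 and 97 gate F cells of runs 1, 2 and 3 had Trac, so this group held some cells with Trac. Trdc was thus lower in the cells with a drawn Trac UMI in runs 2 and 3, and higher in run 1, which had 11 such cells. The intervals did not overlap in any run. Of the gate F cells with a drawn Trac UMI, 21 in run 2 and 21 in run 3 had no drawn Trdc UMI. In gate G Trac was in 56.1% of the 98 Trdc+ cells and 88.9% of the 1248 Trdc- cells of run 2, and in 30.5% and 65.0% in run 3.

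Cd247 was found more often in Trdc+ cells in every run. It was detected in 30.1% of Trdc+ cells (28.5 to 31.9) against 24.5% of Trdc- cells (22.9 to 26.1) in run 1, 37.3% against 25.2% in run 2 and 35.1% against 19.1% in run 3, and in 3.37% of B cells. Its level over 0, 1, 2 to 4 and 5 or more Trdc UMIs was 126, 143, 165 and 448 CPM in run 1. These groups had 143, 169, 209.6 and 447 in run 2 and 105, 162, 258 and 477 in run 3. The difference was large in gate F, where 68.0%, 70.0% and 60.7% of Trdc+ cells and 14.3%, 24.2% and 34.0% of Trdc- cells had Cd247. In ungated cells the shares were 30.2% and 24.8% in run 1, 44.0% and 25.9% in run 2, and 43.0% and 19.3% in run 3. Gate G had 31.4% and 15.6% in run 3, and in run 2 32.7% and 22.3% with overlapping intervals. In gates B and D the shares in Trdc+ and Trdc- cells had overlapping intervals in each run, such as 30.3% and 26.7% in gate D of run 1.

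**Figure D4:**
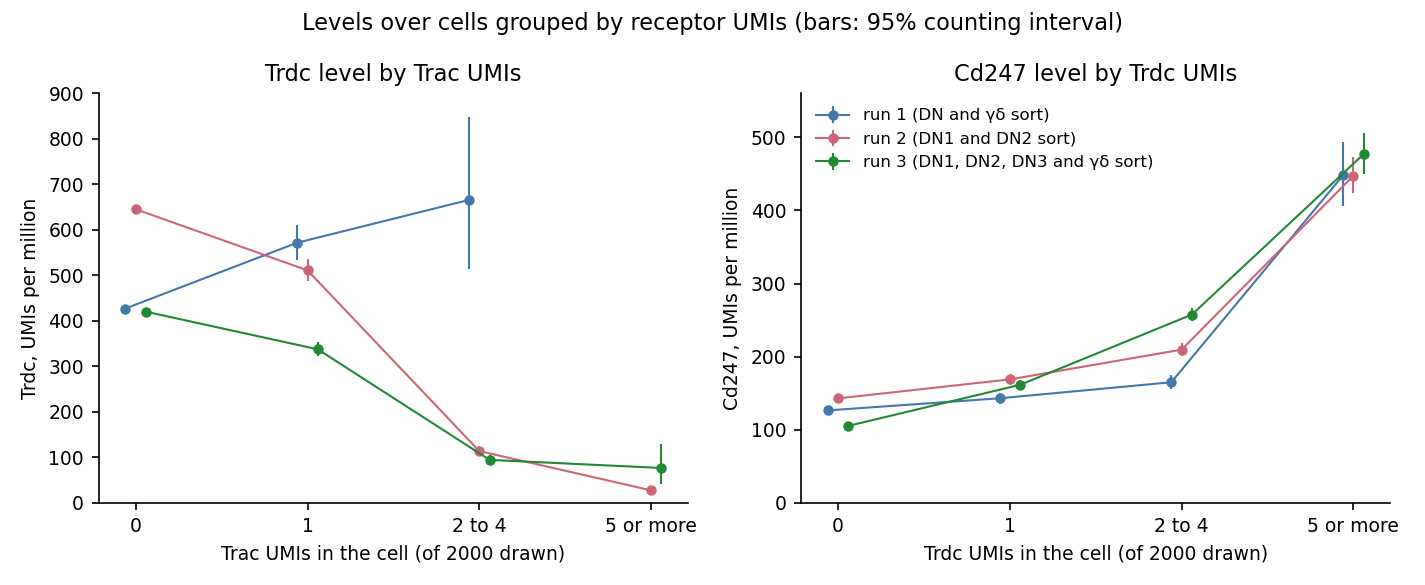
Left, Trdc level in cells grouped by Trac UMIs; right, Cd247 level in cells grouped by Trdc UMIs (CPM, 95% counting intervals, 1 line per run, groups by 2000 drawn UMIs). Trdc drops to 27.4 and 76.6 in cells with 5 or more Trac UMIs in runs 2 and 3, and Cd247 lies between 447 and 477 in cells with 5 or more Trdc UMIs.

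The β constant genes were found in most Trdc+ cells. Trbc2 was detected in 96.8%, 95.3% and 94.1% of them in runs 1, 2 and 3, against 96.5%, 92.4% and 86.2% of Trdc- cells. Trbc1 was detected in 83.6%, 89.4% and 83.6% against 74.9%, 71.7% and 68.2%, and in 26.6% of B cells. A Trbc transcript was thus common in cells with and without Trdc.

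Cd3g was higher in Trdc+ cells of runs 1 and 3, by at most 7.31 points. In run 2 its intervals overlapped over all cells, and without thinning its difference there was -0.942 points. Inside gates A, B and C of run 2 Cd3g was higher in Trdc+ cells without overlap. The shares were 78.7% and 70.7% in gate B and 88.3% and 79.6% in gate C. In gates D, F and G and in ungated cells of run 2 the intervals overlapped. Over all cells Cd3e and Cd3d had no common direction. Cd3g was detected in 87.5% of Trdc+ and 83.6% of Trdc- cells of run 1, 87.8% and 86.6% of run 2, and 83.8% and 76.5% of run 3. Cd3e was at 62.5% and 60.7%, 71.1% and 73.9%, and 63.5% and 58.0%. With another random draw of 2000 UMIs its difference was -1.45 points in run 2 and 2.35 in run 3. Without cells carrying markers of other cell types it was 0.663 points in run 3. Inside gate B Cd3e was higher in Trdc+ cells of each run, at 52.7% and 41.5%, 55.7% and 51.2%, and 48.5% and 41.3%, with overlapping intervals. Inside gate C it was higher in each run, without overlap in run 2 alone (72.7% and 62.7%). Inside gate D it had no common direction. Cd3d was at 63.9% and 63.0% in run 1, 46.3% and 63.6% in run 2, and 65.5% and 62.4% in run 3. In run 2 the Cd3d intervals of Trdc+ and Trdc- cells overlapped inside each gate, with 20.8% and 20.3% in gate B and 84.5% and 81.8% in gate F. Gates A, B, C and F leaned the other way, with 11 of 19 and 8 of 37 cells in gate A. Gates D and G leaned the same way as all cells of run 2. The ungated cells of run 2 kept the difference, at 56.2% (53.8 to 58.5) and 70.0% (68.0 to 72.0).

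**Figure D5:**
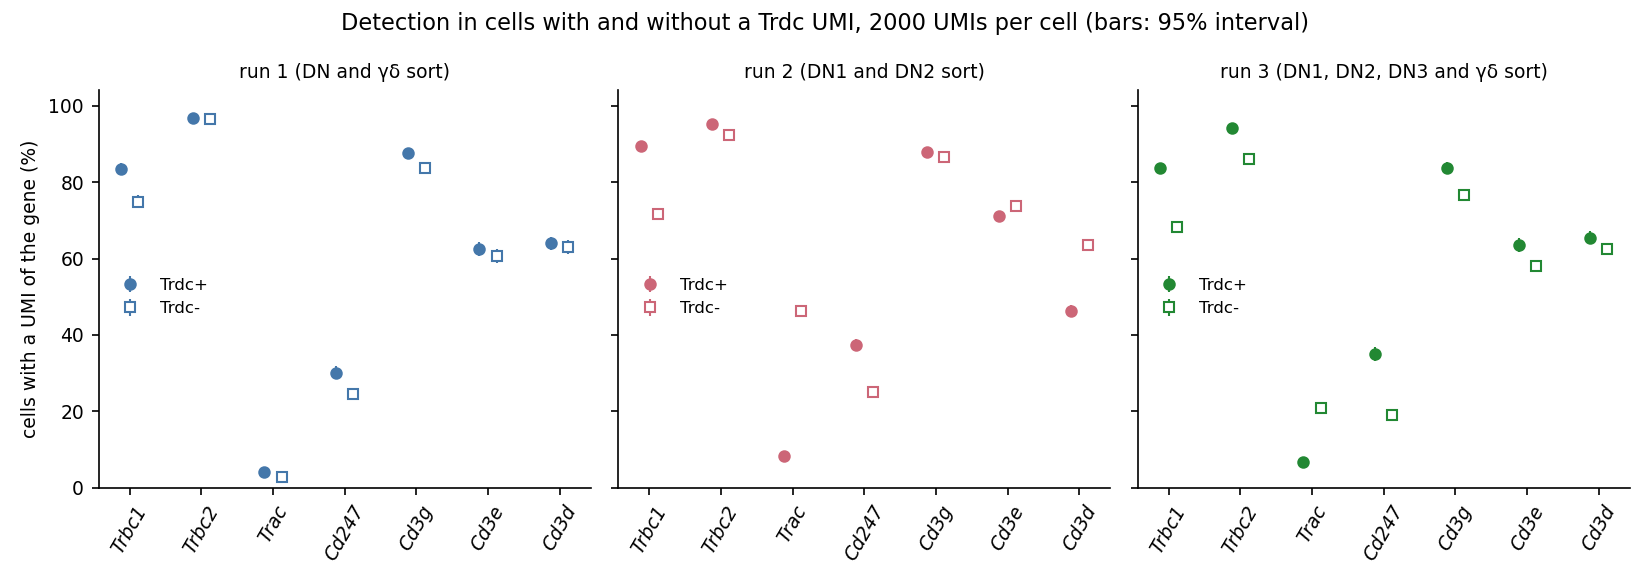
Percent of cells with a UMI of each gene in cells with (filled) and without (open) a Trdc UMI, 2000 UMIs drawn per cell, 1 panel per run, with 95% Clopper-Pearson intervals. Trac is lower in Trdc+ cells of runs 2 and 3 (8.18% against 46.1%, and 6.85% against 20.8%), and Cd247 is higher in Trdc+ cells of all 3 runs.

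Across the 16 gate and run libraries the members did not form 1 pattern. On log2(CPM + 1) centred on each run's mean over gates A to D, Cd3e and Cd3d were the genes most like each other among 5696 compared (Pearson r = 0.93), although Cd3g, the nearer neighbour of Cd3d, had r = 0.23 with Cd3d. The genes most like Trac were Ly9, Cd2 and Atp2b1 (r = 0.98, 0.98 and 0.97), and those most like Cd247 were Ccr9, Exoc4 and Heg1 (0.97, 0.93 and 0.93). Trbc1 was nearest to Slc35b4, Phf20 and Nrip1 (0.95, 0.89 and 0.87), Trbc2 to Chchd3, Ighm and Oxa1l (0.95, 0.90 and 0.90), and Cd3g to Atxn7l1, Gbp4 and Gbp8 (0.92, 0.91 and 0.91). After each other, Cd3e and Cd3d were nearest to Trgv2 and Tprkb (0.87 and 0.85) and to Mxd4 and Ucp2 (0.84 and 0.82). Gates of a run share a library, so these r values are descriptions only. A few libraries can also carry an r: Trac was at 1411 and 519.8 CPM in gate G and at no more than 89.7 CPM in gates A to E.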

How the data were processed

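The authors deposited whole-number UMI counts per gene and cell, made with Cell Ranger against mm10 from 10x 3′ libraries. The header of run 3 names version 4.0.0, and the submitters' notes name R 3.6.3 and Seurat 2.3. The methods name 2 kit versions without saying which run had which, so depth and kit differ between runs in ways that cannot be told apart. From the deposited counts, cells and gates were set as described, cells reaching a limit of markers of B, myeloid, plasmacytoid dendritic, erythroid or stromal cells were left out of the gates, and CPM were computed per gate and run. Gate sums were tested in edgeR 4.0.16 (R 4.3.3) by the two-sided quasi-likelihood F test with TMM, filterByExpr and Benjamini-Hochberg adjustment at 0.05, tested first on simulated data. The run was the block: libraries of a run deviated together (r from 0.36 to 0.89 over 18 pairs). P-values therefore measure how consistently differences between gates repeated over the runs, 3 libraries of pooled mice from different sorts. The spread was estimated over all gates together, and gate G had 2 libraries. DESeq2 1.42.0 and the other alternatives are given in the closing section. No doublets were removed in the main values. The Scrublet caller in scanpy 1.11.5 marked 0 cells in run 1, so only its ranking was used, as an alternative. Named genes were the 7 members, up to 10 of the pathway list, and the 3 genes nearest each member by r among those with a mean of at least 20 CPM. The members and lists were chosen with earlier results of these data known. Some marker genes are not reported here.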

Additional observations from a re-analysis of the deposited data

Results flagged for a closer look

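Cd3e and Trbc2 went opposite ways in different runs by the values reported here, and the difference between runs was not tested. The share of cells with Cd3e was lower in Trdc+ than in Trdc- cells of run 2, by -2.74 percentage points, and higher in run 3, by 5.58. With another random draw of 2000 UMIs per cell these were -1.45 and 2.35 points, so their size depends on the draw. Without cells carrying markers of other cell types they were -3.75 and 0.663 points, so the size depends on those cells too. From gate B to gate D the log2 ratio of Trbc2 levels was 0.28 in run 1 and -0.30 in run 3.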

How the results depend on the processing

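Gates need a UMI of a marker, so gate membership depends on the depth of a cell, and the background in B cells was read in run 3 only, where it moved with the rule for B cells (Trbc1 299 or 1367 CPM). With 3 libraries from different sorts, the run was kept as the block. With no replicate block the calls of members went from 1 to 0 (C against B), 2 to 0 (D against C), 5 to 2 (F against D) and 2 to 1 (G against D), and those of all genes from 32, 390, 2895 and 6324 to 0, 3, 682 and 2514. At an unadjusted p under 0.05, 1 member passed without the block at each of the first 2 steps. DESeq2, with the block, called 1 and 2 members there, and no member of either step fell at an unadjusted p.

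Leaving out 1 library at a time gave, for the same comparisons, 0 to 1, 0 to 3, 3 to 6 and 1 to 4 members and 0 to 41, 88 to 571, 575 to 3415 and 3929 to 6569 genes, the lowest without run 2 or 3 and the highest without run 1. Where gate G is left with 1 library, its spread is taken from the other gates. Gates set on counts thinned to 2000 UMIs gave 4 members in G against D and 5, 64, 1783 and 3848 genes, and turned the sign of the Cd3d difference there to -0.47. With 2 UMIs asked of a marker, 9 genes (C against B) and 1714 (F against D) passed, and without a filter on low counts 2 members and 113 genes (C against B) and 612 genes (D against C). From C against B, 15 genes passed without the highest doublet scores, 55 with cells carrying other markers kept, 19 with libraries of at least 20 cells and 14 in DESeq2. Library size alone gave 5 members in G against D. Keeping cells with other markers put 3 members, in place of 5, at 50% of their height in gate B of run 3.

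The Cd3e share difference between Trdc+ and Trdc- cells of run 2 turned positive at 1000 and 4000 UMIs (0.293 and 6.28 points), without thinning (0.0298) and with 2 Trdc UMIs asked (0.741), and was -1.45 with another random draw. That of Cd3d in run 3 turned negative at 4000 UMIs (-0.992) and without cells carrying other markers (-1.26). That of Cd3g in run 2, 1.18 points in the main values, was -0.942 without thinning. The cause was not tested. Of 392 member fold changes, 359 kept their side of the threshold, 15 passed newly, 17 no longer passed and 1 reversed. A change of sign was counted as reversed only where at least 1 of the fits compared had passed. The 359 can therefore include changes of sign between differences that did not pass. Of 645 member levels under other settings, 183 lay outside the counting interval of the main value. Of 147 Trdc share differences, 53 moved by more than counting error and 6 reversed.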
